A study of Mus musculus with 45 samples.

Results

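The genes of the 4 fibroblast growth factor (FGF) receptors, Fgfr1, Fgfr2, Fgfr3 and Fgfr4, were followed through array comparative genomic hybridization of 45 mouse mammary gland tumors. The members were the genes whose name a probe of the array carries, and they account for 4 of the 20798 gene names and 10 of the 42235 probes on the autosomes and chromosome X. Genomic DNA of each primary tumor of a female mouse was hybridized with reference DNA on 1 Agilent 44K array, which compares DNA copy number and not expression. The models were MMTV-Myc (MMTV-c-Myc in the labels, n = 5), MMTV-PyMT (n = 9), BRCA1-/-;p53+/- (labelled BRCA1fl/fl;p53+/-;MMTV-cre, n = 5, below also the BRCA1-deficient model), MMTV-Her2/neu (n = 5), MMTV-HRas (labelled MMTV-H-Ras, n = 5), C3(1)-Tag (the SV40 T/t-antigens, n = 5), p53-/- (labelled p53fl/fl with MMTV-cre, transplant, n = 6) and MMTV-Wnt1 (n = 5). The MMTV promoter is active mainly in mammary epithelium and drove either the transgene or the Cre that deletes the floxed gene, so that cells without Cre keep that gene. The C3(1) promoter drives the antigens in epithelium of mammary gland and prostate. Only the p53-/- tumors were transplants, and the ages and the strain of each model were not given in the sources used here. The reference was pooled spleen DNA by its source name, whereas its characteristics name normal mammary tissue. Tumors of a model are its replicates, and a replicate number only names a tumor.

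FGF receptors are receptor tyrosine kinases of the cell surface. An FGF ligand together with heparan sulfate or a Klotho co-receptor brings receptor molecules together, which phosphorylate each other and pass the signal through FRS2, GRB2 and SOS to RAS and the MAP kinases, through PI3 kinase to AKT, and through phospholipase C gamma. Sprouty, Spred and Dusp proteins dampen the pathway, and Etv transcription factors are among its targets. Fgfr2 in its epithelial form is required for the embryonic mammary bud and for branching of the ducts. In human breast cancer, FGFR1 lies in a recurrent amplicon of chromosome band 8p11-p12, FGFR2 is amplified in a small share of tumors and carries common risk variants in an intron, and FGFR4 is linked to the luminal and HER2-enriched subtypes.

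All values are log2 ratios of Cy3 over Cy5, centred on the autosomal median of the array, and positions are those of mouse build mm8. The labels give Cy5 to the tumor, but the files run the other way. Of 755 intervals in the authors' table that held 3 or more probes and reached 0.2 in size, 740 (98.0%) had the sign of Cy3 over Cy5, and this held for most of them in 45 of 45 arrays. The Brca1 probe at chromosome 11, 101340828 to 101340887, which lies in the gene that the BRCA1-/-;p53+/- model deletes, had a mean of -3.97 ± 1.40 there (SD, n = 5) and of -0.052 ± 0.11 in C3(1)-Tag tumors (SD, n = 5). Cy3 over Cy5 was therefore read as tumor over reference, against the labels, a choice made with the values known. Taking the dyes as labelled turns every sign and makes each gain a loss.

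The DNA of 5 arrays is in doubt. MMTV-Her2/neu replicate 2 and C3(1)-Tag replicate 3 had nearly the same genome profile (Pearson's r = 0.960 over 2057 bins of 1 Mb), as had MMTV-Her2/neu replicate 3 and C3(1)-Tag replicate 4 (r = 0.928), while the highest r of any other pair from different models was 0.825. That other pair was MMTV-Her2/neu replicate 1 with C3(1)-Tag replicate 3, which is itself in doubt. MMTV-Her2/neu replicate 5 and C3(1)-Tag replicate 4, also in doubt, came next among pairs from different models (r = 0.75). Bins of an array share its noise, so these coefficients are descriptions. In MMTV-Wnt1 replicate 1 the Wnt1 probe, which reads the transgene copies, was at 0.074, against 1.07 to 1.5 in the other 4 tumors of that model. Most counts of altered tumors and most model means that rest on these 5 arrays are given with and without them. Of the tests, the numbers of calls and the 1 called focal test are given both ways. Other tests, orders of model means, comparisons within a slide or scan day, correlations, SDs over 45 tumors and list shares use all arrays. The Erbb2 probes were not raised in MMTV-Her2/neu tumors (means of 0.12 and -0.036), where the transgene is as a rule the rat gene, so they do not check that label.

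Signal over background ran from 2.08 to 14.5 for Cy5 and from 3.70 to 16.7 for Cy3 over the arrays (medians over probes), with 96.6 to 99.8% of probes well above background. Probe noise, the SD that adjacent probes imply for 1 probe, ran from 0.158 to 0.476 (median 0.234) and was highest in p53-/- replicate 3 (0.476), MMTV-PyMT replicate 8 (0.472), p53-/- replicate 2 (0.448), MMTV-PyMT replicate 9 (0.445) and MMTV-Myc replicate 1 (0.444). A gene value is the mean of the 2 or 3 probes of a gene, with a standard error from probe noise of 0.14 for Fgfr1 and Fgfr2 and 0.17 for Fgfr3 and Fgfr4 in the median array. The number of arrays limits the precision.

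Gains and losses of segments were separated from focal deviations. Chromosomes were cut into segments of constant ratio, and a segment with a mean of at least 0.2 was called gained and one of at most -0.2 lost. A gene counted as gained in a tumor where at least as many of its probes lay inside gained segments as outside them, and likewise for losses. The focal deviation is the gene value minus the median of all probes of the same chromosome farther than 5 Mb from the gene in the same array, so that a whole chromosome gained or lost leaves it near 0. Over the 180 pairs of a receptor gene and a tumor, 18 (10%) were gained and 24 (13.3%) lost, against 16.2% gained and 10.7% lost over all pairs of a gene and a tumor. Without the 5 arrays in doubt, 14 (8.75%) of 160 pairs were gained and 16 (10%) lost, against 15.9 and 9.60% over all genes. At least 1 receptor gene was altered in 18 of 45 tumors, or 40%, with an exact (Clopper-Pearson) 95% interval from 25.7 to 55.7%, and in 13 of the 40 tumors whose DNA is not in doubt.

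**Figure D1:**
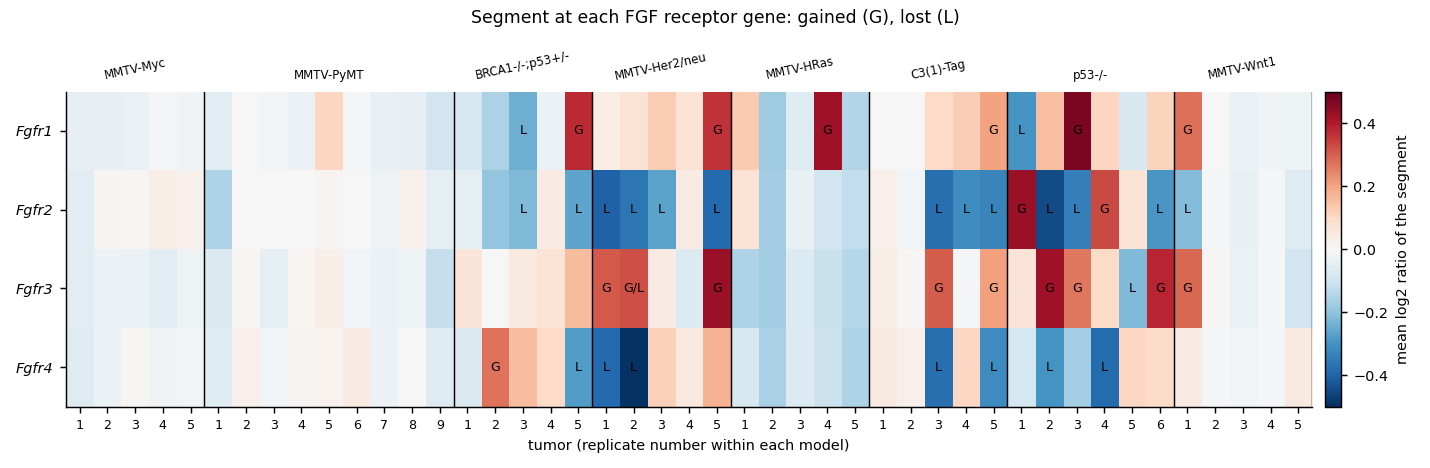
Segments at the 4 FGF receptor genes (rows) in 45 tumors (columns, by model, with the replicate number below). The color is the mean log2 ratio, Cy3 over Cy5, of the segment that holds the gene, G and L mark genes counted as gained and lost, and G/L marks the Fgfr3 gene of MMTV-Her2/neu replicate 2, whose 2 probes lay in different segments. No gene was marked in the 5 MMTV-Myc and 9 MMTV-PyMT tumors, and Fgfr2 carries the most losses, 13.

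The altered tumors were unevenly spread over the models. All 6 p53-/- tumors had at least 1 altered receptor gene (interval 54.1 to 100%), as had 4 of 5 MMTV-Her2/neu, 3 of 5 BRCA1-deficient, 3 of 5 C3(1)-Tag, 1 of 5 MMTV-HRas and 1 of 5 MMTV-Wnt1 tumors. None of 5 MMTV-Myc tumors (interval 0 to 52.2%) and none of 9 MMTV-PyMT tumors (interval 0 to 33.6%) had one. Without the arrays in doubt the counts were 2 of 3 in MMTV-Her2/neu, 1 of 3 in C3(1)-Tag and 0 of 4 in MMTV-Wnt1. The models also differed in how much of the whole genome was altered. In MMTV-Myc tumors 5.51% of all genes were gained and 0.176% lost, and in MMTV-PyMT tumors 10.2 and 0.794%, whereas in p53-/- tumors 30.2 and 25.8% of all genes were gained and lost, beside 6 and 7 of the 24 receptor gene and tumor pairs.

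In MMTV-Her2/neu tumors 4 pairs of 20 were gained and 7 lost, beside 16 and 21.2% of all genes. The BRCA1-deficient tumors had 2 gained and 4 lost pairs of 20, beside 19.7 and 18.7% of all genes, and the C3(1)-Tag tumors 3 and 5, beside 16.3 and 18.6%. Without the arrays in doubt, MMTV-Her2/neu tumors had 3 gained and 3 lost pairs of 12, beside 15.9 and 20.3% of all genes. C3(1)-Tag tumors then had 2 and 2 of 12, beside 15.7 and 16.9%. MMTV-HRas tumors had 1 gained pair and no lost one, beside 24.7 and 2.95%. The MMTV-Wnt1 tumors had 2 gained pairs and 1 lost one, all in replicate 1, beside 9.33 and 2.04%. Without that replicate, which is in doubt, 0 of 16 pairs were gained or lost, beside 4.89 and 0.314% of all genes. Of the 18 tumors, 5 had 1 altered receptor gene, 4 had 2, 8 had 3 and 1 had all 4, which was C3(1)-Tag replicate 5 with Fgfr1 and Fgfr3 gained and Fgfr2 and Fgfr4 lost.

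Each model was compared with the mean of the other 7 model means for each receptor gene, in a limma fit over all 20910 genes and 45 arrays. None of the 32 tests of gene values passed an adjusted p of 0.05 (limma, Benjamini-Hochberg over all genes), and 2 had an unadjusted p under 0.05. The differences were at most 0.24 in size with standard errors of 0.069 to 0.12, and the smallest adjusted p was 0.13. The share of all genes that passed was 0.65% for MMTV-Myc, 0.588% for MMTV-PyMT, 5.01% for BRCA1-/-;p53+/-, 0.0287% for MMTV-Her2/neu, 4.29% for MMTV-HRas, 0.00478% for C3(1)-Tag, 16.5% for p53-/- and 0.0765% for MMTV-Wnt1. For focal deviations 1 of 32 tests passed, that of Fgfr2 in p53-/- tumors, and the share of all genes was 0.521% for MMTV-Myc, 0.00478% for MMTV-PyMT, 11.8% for BRCA1-/-;p53+/-, 0.0143% for MMTV-Her2/neu, 0.11% for MMTV-HRas, 0.00478% for C3(1)-Tag, 19.6% for p53-/- and 0.55% for MMTV-Wnt1. The single call thus stands beside a share of 19.6% of all genes in the same comparison. A test that missed the threshold does not show equal copy number, and the 95% intervals of the differences are given below where a gene turned on them.

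**Figure D2:**
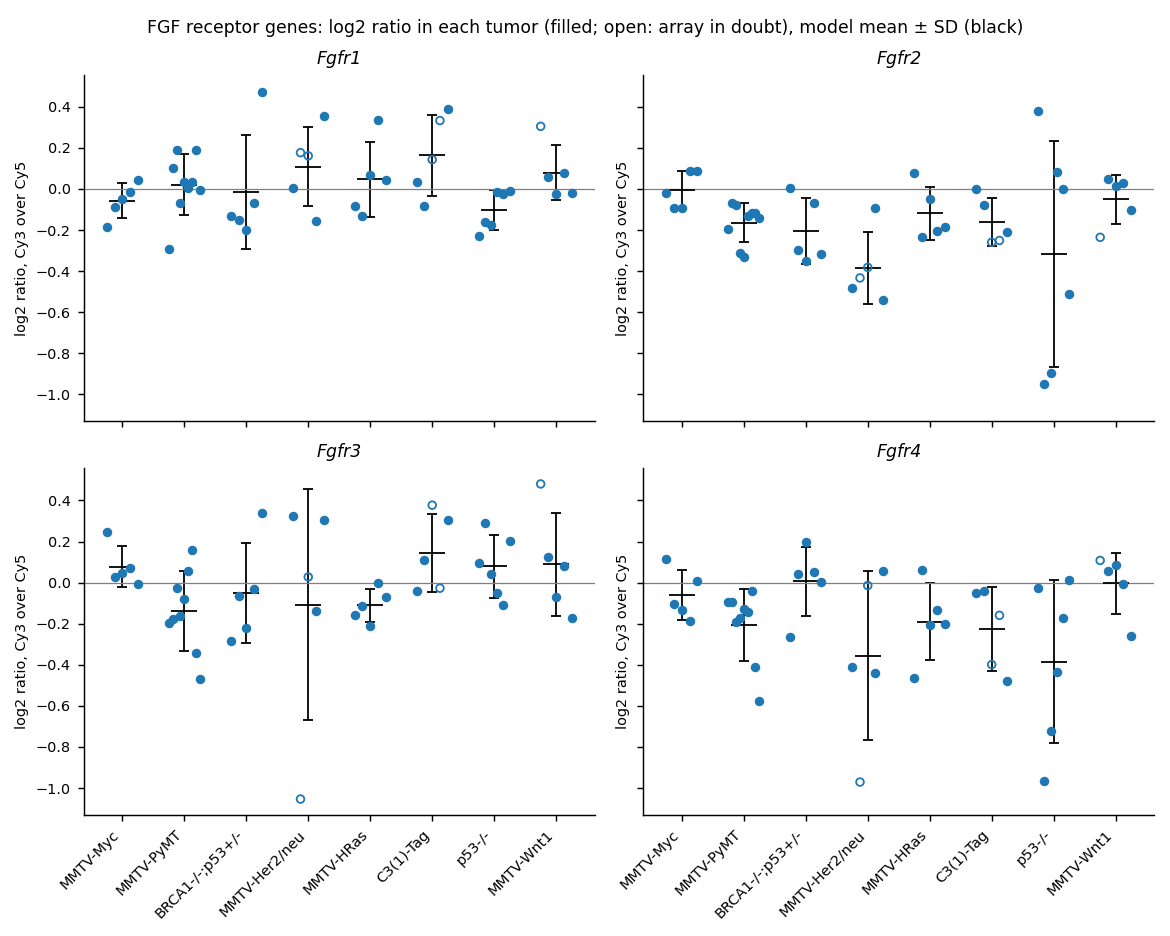
Log2 ratio (y axis, Cy3 over Cy5) of each FGF receptor gene in each of 45 tumors, by model (x axis). Filled points are tumors, open points the 5 arrays in doubt, and black bars the model mean ± SD. The lowest points are Fgfr3 and Fgfr4 in MMTV-Her2/neu replicate 2 (-1.05 and -0.97) and Fgfr2 and Fgfr4 in p53-/- replicate 2 (-0.95 and -0.97).

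Fgfr2, the receptor of the mammary epithelium for FGF7 and FGF10, was the receptor gene lost most often. Its 3 probes lie on chromosome 7 at 129962746 to 129962802, 130026522 to 130026581 and 130057714 to 130057773, a span of 95 kb. It was lost in 13 of 45 tumors (28.9%, interval 16.4 to 44.3%) and in 8 of the 40 without the arrays in doubt, and it was gained in 2. The losses were in 4 of 5 MMTV-Her2/neu, 3 of 5 C3(1)-Tag, 3 of 6 p53-/-, 2 of 5 BRCA1-deficient and 1 of 5 MMTV-Wnt1 tumors. Without the arrays in doubt they were in 2 of 3 MMTV-Her2/neu, 1 of 3 C3(1)-Tag and 0 of 4 MMTV-Wnt1 tumors, with the other models as before. Of all genes, 5.94% were lost in at least as many tumors, and the median gene was lost in 4. The authors' intervals gave 7 losses and 2 gains.

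In MMTV-Her2/neu tumors the Fgfr2 values were -0.48, -0.43, -0.38, -0.092 and -0.54 in replicates 1 to 5, a mean of -0.39 ± 0.17 (SD, n = 5). Replicates 1, 2, 3 and 5 were low and replicate 4 was near 0. The mean differed from that of the other models by -0.24 (SE 0.11, 95% interval -0.46 to -0.019), with an adjusted p of 0.35 (limma), and without the arrays in doubt it was -0.37 ± 0.24 (SD, n = 3). The medians of chromosome 7 in the same tumors were -0.41, -0.38, -0.25, -0.058 and -0.43, and the focal deviations lay between -0.14 and -0.035. Most of the low ratio was thus shared by the whole chromosome. The lost segments measured 107 Mb in replicate 1, 3.64 Mb in replicate 2, 38 Mb in replicate 3 and 18.3 Mb in replicate 5. Chromosome 7 was cut into 11, 56, 9 and 26 segments in these tumors, so a segment length does not give the extent of the loss. In replicates 2 and 5 the segment means, -0.36 and -0.39, were close to the chromosome medians. C3(1)-Tag replicate 3, of nearly the same profile as replicate 2, had chromosome 7 in 1 lost segment. Against the arrays of other models on the same slide, 1 slide at a time, the Fgfr2 value of the MMTV-Her2/neu tumor differed by -0.54, -0.38, -0.26 and -0.27 on the 4 slides that hold both. By scan day the differences were -0.33, -0.20 and 0.070, the last for the day of replicate 4.

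In p53-/- tumors Fgfr2 had its widest spread, with a lowest, median and highest value of -0.95, -0.26 and 0.38 (mean -0.32 ± 0.55 (SD, n = 6)). Replicates 2, 3 and 6 were low, at -0.95, -0.90 and -0.51, replicates 4 and 5 were near 0, at 0.083 and -0.0013, and replicate 1 was high at 0.38. The 3 probes read -0.83, -1.12 and -0.90 in replicate 2 and -0.81, -0.92 and -0.96 in replicate 3, so that the low value did not come from 1 spot. The medians of chromosome 7 in these 2 tumors were -0.51 and -0.34, and the focal deviations -0.44 and -0.56. Replicate 1 had a gained segment of 19.7 Mb with a mean of 0.43 and replicate 4 one of 5.88 Mb with a mean of 0.33, in which the 3 probes of the gene read 0.35, 0.023 and -0.12.

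The mean focal deviation of Fgfr2 was -0.21 ± 0.27 (SD, n = 6) in p53-/- tumors and -0.047 over the means of the other models. This is a difference of -0.16 (SE 0.056, 95% interval -0.27 to -0.049, adjusted p = 0.040 in the limma fit), the only call among the receptor genes, where 6.7% of all genes were called lower in the same comparison. It was lower than the chromosome in 5 of 6 tumors. The call was lost with normexp background in place of the deposited ratios (adjusted p = 0.19), with slide as a random block (0.17), without the arrays in doubt (0.073) and without p53-/- replicate 2 (0.24), 3 (0.34), 4 (0.064) or 6 (0.061). Taking the median of the 3 probes and the 10 nearest probes in place of the 3 probes turned the sign, to 0.036. That median was -0.67 in replicate 2 and -0.42 in replicate 3, less low than the gene. These are 2 of the 3 arrays with the highest probe noise, and its part in the result was not tested. Within the 2 scan days that hold p53-/- arrays the difference was -0.069 and -0.16, and no slide holds p53-/- arrays together with others.

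**Figure D3:**
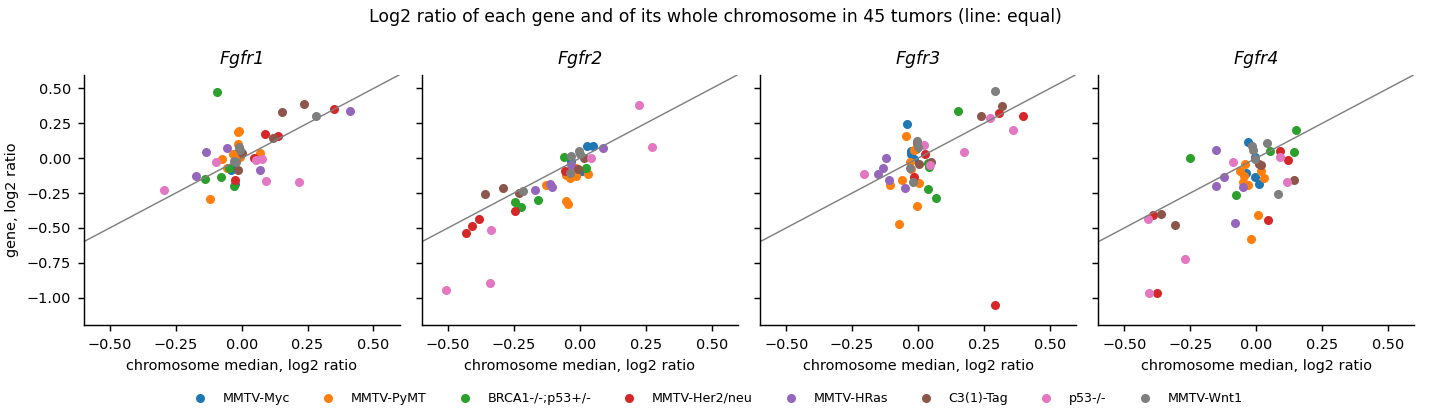
Log2 ratio of each FGF receptor gene (y axis) against the median of all probes of its chromosome (x axis) in 45 tumors, colored by model, with the line of equal values. The focal deviation, close to the vertical distance from the line, passed 0.2 in size in 4 tumors for Fgfr2 (p53-/- replicates 2 and 3 and MMTV-PyMT replicates 4 and 5) and in 13 for Fgfr4, and the lowest single point is Fgfr3 in MMTV-Her2/neu replicate 2.

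In C3(1)-Tag tumors Fgfr2 read 0.0023, -0.077, -0.26, -0.25 and -0.21 in replicates 1 to 5 (mean -0.16 ± 0.12 (SD, n = 5), and -0.10 ± 0.11 (SD, n = 3) without replicates 3 and 4). The low values were those of replicates 3, 4 and 5, whose segments were lost. In BRCA1-deficient tumors it read 0.0049, -0.30, -0.35, -0.069 and -0.32, and lost segments of 28.2 and 16.9 Mb were called in replicates 3 and 5. Replicate 2, with a segment mean of -0.196, lay just outside the limit. MMTV-PyMT tumors had a lowest, median and highest value of -0.33, -0.13 and -0.068, all below 0, and no lost segment. Replicates 4 and 5 were the lowest of them, at -0.31 and -0.33 with focal deviations of -0.26 and -0.29. MMTV-HRas tumors read 0.076, -0.23, -0.047, -0.20 and -0.18, MMTV-Myc tumors -0.017, -0.092, -0.092, 0.089 and 0.087 and MMTV-Wnt1 tumors -0.24, 0.049, 0.014, 0.027 and -0.10. The only lost segment in these 3 models was that of MMTV-Wnt1 replicate 1, at -0.22. From low to high the model means ran MMTV-Her2/neu, p53-/-, BRCA1-/-;p53+/-, MMTV-PyMT, C3(1)-Tag, MMTV-HRas, MMTV-Wnt1 and MMTV-Myc, and no neighbours in this order differed by more than the larger of their SDs.

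Genes next to Fgfr2 were lost about as often as Fgfr2 itself. The 10 nearest probes reach -484 kb on the left and 472 kb on the right and include Ate1, an arginyl transferase, and Tacc2, a centrosomal protein. The SD of the Fgfr2 value minus their median over the 45 tumors was 0.16. Of 6 listed neighbours 4 were on the array, and 29.4% of their pairs with tumors were lost and 4.44% gained. In p53-/- replicates 2 and 3, 4 of these 4 genes were lost, with a median value of -0.51 and -0.38. Among the 4, Brwd2 (an older symbol of Wdr11) read -0.21, 0.24, -0.65, -2.64 and -1.67 in BRCA1-deficient replicates 1 to 5, lowest in replicates 4 and 5, which share slide 11 with replicate 3. The mean was -0.99 ± 1.16 (SD, n = 5), a difference from the other models of -0.99 (SE 0.21, adjusted p = 0.0033 in limma), where Fgfr2 differed by -0.034 (adjusted p = 0.90).

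Fgfr1, the receptor gene of the human 8p11-p12 amplicon, held the highest focal deviation of the 4 genes. Its 3 probes lie on chromosome 8 at 26994666 to 26994725, 27008545 to 27008604 and 27041119 to 27041176, a span of 46.5 kb. It was gained in 6 of 45 tumors (13.3%, interval 5.05 to 26.8%), 1 in each model but MMTV-Myc and MMTV-PyMT, in 5 of the 40 without the arrays in doubt, and lost in 2. Of all genes, 52.2% were gained in at least as many tumors, and the median gene was gained in 6. The authors' intervals gave 8 gains and 1 loss. The first probe varied more over the tumors (SD 0.35) than the other two (0.20 each).

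The highest Fgfr1 value was that of BRCA1-/-;p53+/- replicate 5, 0.47 with probes at 0.50, 0.47 and 0.45, while replicates 1 to 4 read -0.13, -0.15, -0.20 and -0.068. The median of chromosome 8 in replicate 5 was -0.094, and the focal deviation was 0.60, the highest of the 180 pairs. The gained segment ran from 23211984 to 33479775, 10.3 Mb with 196 probes and a mean of 0.37. All 14 genes on the array that neighbour FGFR1 in the human amplicon, which lie within 1.69 Mb of Fgfr1 in the mouse, were gained with it, with a median value of 0.40. The 3 probes thus lay close to the level of a segment that reached far beyond the gene.

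The other gains of Fgfr1 followed the chromosome more closely. MMTV-HRas replicate 4, at 0.34, had the whole of chromosome 8 in 1 gained segment with a mean of 0.42, and MMTV-Wnt1 replicate 1, at 0.30, had 94.3% of its probes in one with a mean of 0.28. C3(1)-Tag replicate 5 (0.39) had a segment of 120 Mb with a mean of 0.202, just inside the limit. MMTV-Her2/neu replicate 5 (0.35, from 2 probes since the third was missing) had a segment of 25.4 Mb in a chromosome with a median of 0.35. The focal deviations of these 4 tumors were -0.073, 0.025, 0.16 and 0.0031. In p53-/- replicate 3 the gene lay in a gained segment of 54 Mb with a mean of 0.47, in which 14 of the 14 neighbours were gained with a median of 0.37, but the gene value was -0.17 with probes at -0.52, -0.31 and 0.31. This array has the highest probe noise of the 45, and its part in that difference was not tested.

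**Figure D4:**
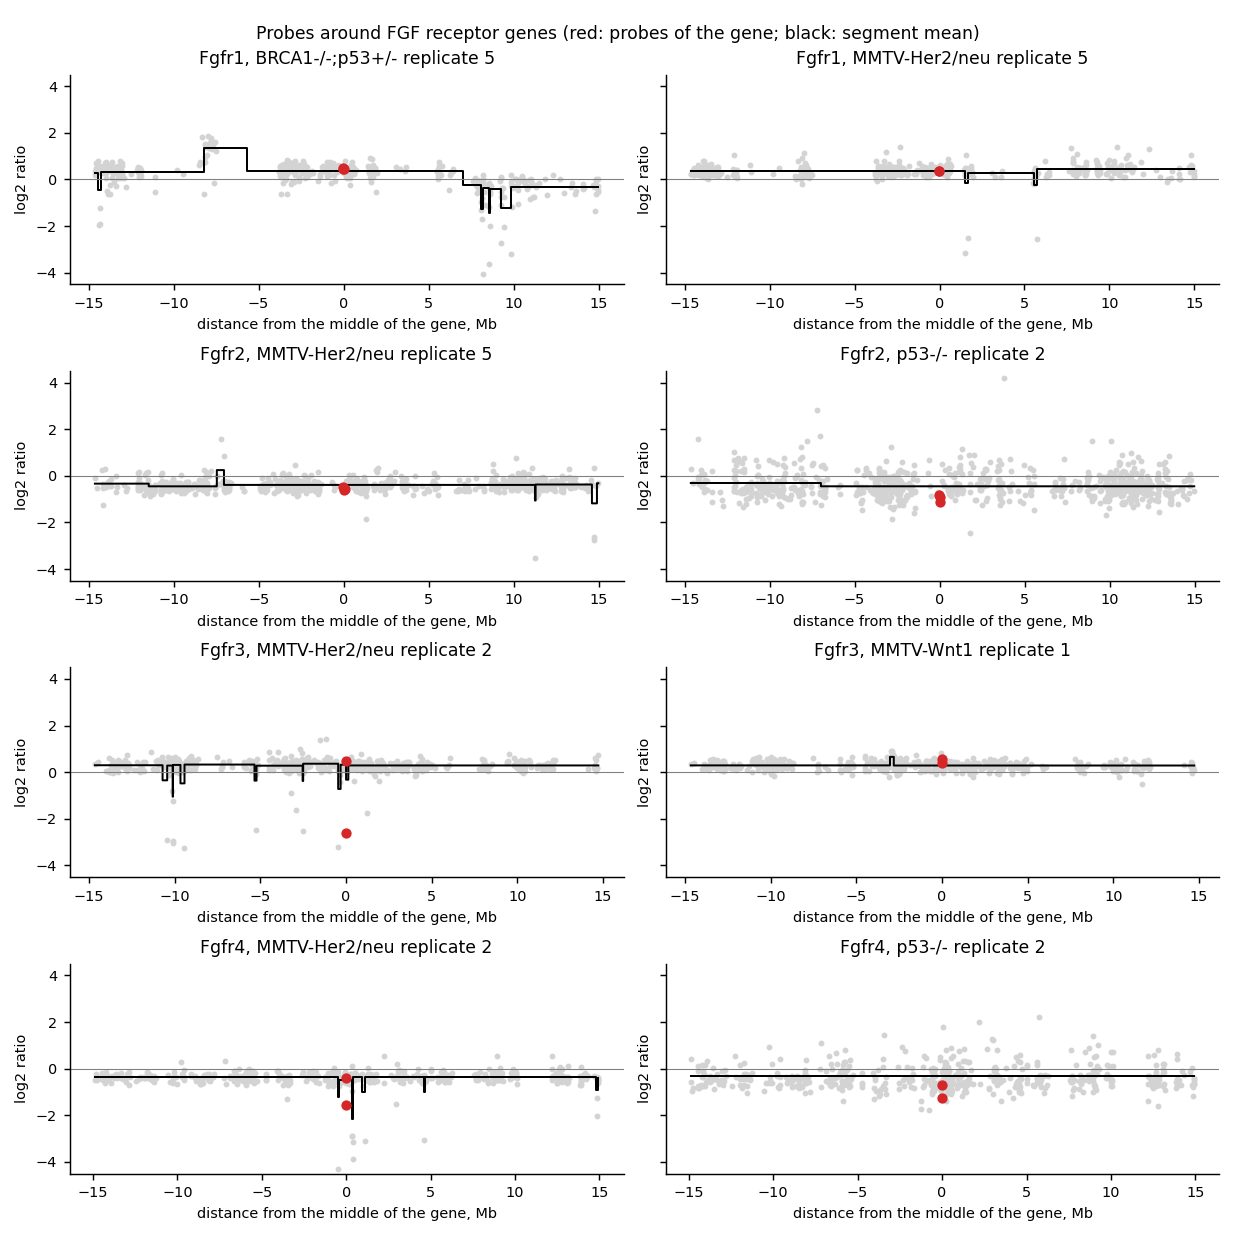
Probes within 15 Mb of an FGF receptor gene in 8 pairs of a gene and a tumor, with distance from the middle of the gene (x axis, Mb), log2 ratio Cy3 over Cy5 (y axis), probes of the gene in red and the segment mean as a black line. In BRCA1-/-;p53+/- replicate 5 the Fgfr1 probes (0.45 to 0.50) lie on a segment of 10.3 Mb, and in p53-/- replicate 2 the Fgfr2 probes (-1.12 to -0.83) lie below a segment mean of -0.45.

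By model, Fgfr1 read 0.036, -0.084, 0.14, 0.33 and 0.39 in C3(1)-Tag tumors, which had the highest mean, 0.16 ± 0.20 (SD, n = 5), and 0.11 ± 0.25 (SD, n = 3) without replicates 3 and 4. It read 0.0046, 0.18, 0.16, -0.16 and 0.35 in MMTV-Her2/neu tumors, a mean of 0.11 ± 0.19 (SD, n = 5), and 0.067 ± 0.26 (SD, n = 3) without replicates 2 and 3. Values were high in replicates 4 and 5 of C3(1)-Tag and in replicate 5 of MMTV-Her2/neu, and the models overlapped. MMTV-HRas tumors read -0.084, -0.13, 0.070, 0.34 and 0.044 and MMTV-Wnt1 tumors 0.30, 0.061, -0.024, 0.077 and -0.020, a mean of 0.080 ± 0.13 (SD, n = 5) that was 0.023 ± 0.053 (SD, n = 4) without replicate 1. MMTV-Myc tumors read -0.18, -0.086, -0.048, -0.014 and 0.045, and MMTV-PyMT tumors had a lowest, median and highest value of -0.29, 0.032 and 0.19. These 4 models overlapped one another. The p53-/- tumors had the lowest mean, -0.10 ± 0.10 (SD, n = 6), with every one of the 6 tumors below 0, between -0.23 and -0.0083. Their difference from the other models was -0.15 (SE 0.082, 95% interval -0.31 to 0.0087, adjusted p = 0.20 in limma). The lost segments were those of p53-/- replicate 1 (55.8 Mb, mean -0.30) and BRCA1-/-;p53+/- replicate 3 (70.6 Mb, mean -0.24). From low to high the model means ran p53-/-, MMTV-Myc, the BRCA1-deficient model, MMTV-PyMT, MMTV-HRas, MMTV-Wnt1, MMTV-Her2/neu and C3(1)-Tag, and again no neighbours differed beyond the larger SD.

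Fgfr3, a receptor of cartilage and epithelia whose loss of control is best known from bone growth and bladder cancer, was the one gained in most tumors. Its 2 probes lie on chromosome 5 at 34042390 to 34042449 and 34046840 to 34046888, a span of 4.50 kb. It was gained in 9 of 45 tumors (20%, interval 9.58 to 34.6%), 3 of 5 MMTV-Her2/neu, 3 of 6 p53-/-, 2 of 5 C3(1)-Tag and 1 of 5 MMTV-Wnt1 tumors, and in 6 of the 40 without the arrays in doubt (2 of 3 MMTV-Her2/neu, 3 of 6 p53-/- and 1 of 3 C3(1)-Tag tumors). It was lost in 2, and in 1 without those arrays. Of all genes, 28.1% were gained in at least as many tumors. The authors' intervals gave 11 gains.

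In p53-/- tumors Fgfr3 had a lowest, median and highest value of -0.11, 0.069 and 0.29 (mean 0.079 ± 0.15 (SD, n = 6)), and replicates 2, 3 and 6 were gained in segments of 32.6, 2.93 and 31.4 Mb with means of 0.42, 0.26 and 0.38. Replicate 5 had a lost segment of 13.6 Mb with a mean of -0.22. In C3(1)-Tag tumors it read -0.040, 0.11, 0.38, -0.027 and 0.31, the highest mean of the models over all arrays (0.15 ± 0.19 (SD, n = 5), and 0.13 ± 0.17 (SD, n = 3) without replicates 3 and 4). High values were those of replicates 3 and 5, and the segment of replicate 5, with a mean of 0.205, lay just inside the limit. That rank was lost without the arrays in doubt, where MMTV-Her2/neu had the highest mean, 0.16 (n = 3). MMTV-Wnt1 tumors read 0.48, 0.13, -0.071, 0.083 and -0.17, with the high value in replicate 1, and without it the mean fell from 0.089 to -0.0092.

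MMTV-Her2/neu tumors read 0.33, -1.05, 0.028, -0.14 and 0.30 for Fgfr3, a mean of -0.11 ± 0.56 (SD, n = 5), and 0.16 ± 0.26 (SD, n = 3) without replicates 2 and 3. Replicates 1 and 5 were high, in gained segments of 85.1 and 80.1 Mb. Replicate 2 had the lowest value of Fgfr3 in any tumor, and its 2 probes disagreed, at 0.49 and -2.60, so that the gene lay in a gained segment by the first probe and in a lost one by the second and counted as both. The spot of the second probe had a Cy3 signal of 204 and a Cy5 signal of 1240, with Cy3 still well above background. The same probe was at 0.39 in C3(1)-Tag replicate 3, the array of nearly the same profile, with a Cy5 signal of 1196. Probes more than 2 below their segment numbered 264 in MMTV-Her2/neu replicate 2, the highest count of the 45 arrays, whose median was 17, while 9 arrays had more probes over 1 below their segment than its 573. The focal difference of MMTV-Her2/neu from the other models was -0.30 (SE 0.11, adjusted p = 0.66 in limma). It moved to -0.038 without this replicate and to 0.047 with the median of the gene's probes and the 10 nearest.

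The other models had no gained or lost segment at Fgfr3. BRCA1-deficient tumors read -0.28, -0.064, -0.22, -0.032 and 0.34, MMTV-Myc tumors 0.25, 0.027, 0.048, 0.069 and -0.0045 and MMTV-HRas tumors -0.16, -0.11, -0.21, -0.00099 and -0.069. MMTV-PyMT tumors had a lowest, median and highest value of -0.47, -0.16 and 0.16 (mean -0.14 ± 0.19 (SD, n = 9)), the lowest mean of the models. The 2 lowest of them were replicates 8 and 9, at -0.34 and -0.47, 2 arrays of high probe noise, in which chromosome 5 was at -0.0039 and -0.071. The listed neighbours of Fgfr3 on the array were 4 of 5, among them Tacc3, a spindle protein, and Letm1, a mitochondrial ion transporter, and 19.4% of their pairs with tumors were gained and 2.78% lost. The 10 nearest probes lie from -95.1 to 82.1 kb of the gene, and the SD of the Fgfr3 value minus their median was 0.26. From low to high the model means of Fgfr3 ran MMTV-PyMT, MMTV-HRas, MMTV-Her2/neu, the BRCA1-deficient model, MMTV-Myc, p53-/-, MMTV-Wnt1 and C3(1)-Tag, with no neighbours apart by more than the larger SD. This order used all arrays. Without those in doubt MMTV-Her2/neu had the highest mean, 0.16, and MMTV-Wnt1 fell to -0.0092.

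Fgfr4, the receptor for FGF19 (FGF15 in the mouse) in the liver, was lost more often than gained by the segments called here, but not by the authors' intervals. Its 2 probes lie on chromosome 13 at 55166187 to 55166238 and 55175568 to 55175612, a span of 9.43 kb. It was lost in 7 of 45 tumors (15.6%, interval 6.49 to 29.5%), 2 each of MMTV-Her2/neu, C3(1)-Tag and p53-/- and 1 BRCA1-deficient tumor, in 5 of the 40 without the arrays in doubt (1 of 3 each of MMTV-Her2/neu and C3(1)-Tag), and gained in 1, BRCA1-/-;p53+/- replicate 2. Of all genes, 27.8% were lost in at least as many tumors. The authors' intervals gave 4 losses and 5 gains. The mean over all 45 tumors was -0.18 ± 0.27 (SD), 15 tumors were below -0.2 and none was above 0.2. The 2 probes had means of -0.17 and -0.20 over all arrays, and the mean focal deviation was -0.13. Low values also occurred without a lost segment, as in the 9 MMTV-PyMT tumors, all below 0.

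In p53-/- tumors Fgfr4 had a lowest, median and highest value of -0.97, -0.30 and 0.011 (mean -0.38 ± 0.40 (SD, n = 6)). Replicates 2, 3 and 4 were low, at -0.97, -0.72 and -0.43, and the other three between -0.17 and 0.011. The mean differed from the other models by -0.24 (SE 0.11, 95% interval -0.45 to -0.022), with an adjusted p of 0.13 (limma), and within the 2 scan days the difference was -0.22 and -0.12. The probes read -0.68 and -1.25 in replicate 2 and -0.45 and -1.0 in replicate 3, against chromosome medians of -0.41 and -0.27. The 11 listed neighbours of Fgfr4 had medians of -0.11 and -0.029 in these tumors, well above the gene, and 11 and 0 of them were in lost segments. Replicate 4, in contrast, had the gene at the level of its chromosome (-0.41) in a lost segment of 19.4 Mb.

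MMTV-Her2/neu tumors read -0.41, -0.97, -0.014, -0.44 and 0.055 for Fgfr4, a mean of -0.36 ± 0.41 (SD, n = 5), and -0.27 ± 0.28 (SD, n = 3) without replicates 2 and 3. Replicates 1, 2 and 4 were low. In replicate 2 the probes read -0.38 and -1.56, and the second of them was at -0.38 in C3(1)-Tag replicate 3. C3(1)-Tag tumors read -0.051, -0.041, -0.40, -0.16 and -0.48, low in replicates 3 and 5, where the segments were lost. MMTV-HRas tumors read -0.47, 0.060, -0.21, -0.13 and -0.20, with the low value in replicate 1 and no lost segment. BRCA1-deficient tumors read -0.26, 0.042, 0.20, 0.053 and 0.0028 and had the highest mean, 0.0066 ± 0.17 (SD, n = 5). In replicate 5 of that model the 2 probes, at -0.25 and 0.25, differed although the segment of 74.9 Mb, with a mean of -0.28, was lost.

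MMTV-PyMT tumors had a lowest, median and highest Fgfr4 value of -0.58, -0.14 and -0.041 (mean -0.21 ± 0.17 (SD, n = 9)), and all 9 were below 0. The 2 lowest were replicates 8 and 9, at -0.41 and -0.58 with focal deviations of -0.43 and -0.58, and the segments there had means of -0.0023 and -0.064. These are again 2 of the 4 arrays with the highest probe noise. MMTV-Myc tumors read 0.11, -0.11, -0.13, -0.19 and 0.0075 and MMTV-Wnt1 tumors 0.11, 0.056, 0.086, -0.0051 and -0.26. No segment was altered in either model. The means ran from p53-/- through MMTV-Her2/neu, C3(1)-Tag, MMTV-PyMT, MMTV-HRas, MMTV-Myc and MMTV-Wnt1 to the BRCA1-deficient model, and neighbours differed by less than the larger SD. Of 12 listed neighbours of Fgfr4, 11 were on the array, among them Nsd1, a histone methyltransferase, and Hk3, a hexokinase, and 16% of their pairs with tumors were lost and 2.22% gained.

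The 4 genes differed in how much of their variation belonged to the chromosome. Over the 45 tumors the SD of the value was 0.18 for Fgfr1, 0.24 for Fgfr2, 0.26 for Fgfr3 and 0.27 for Fgfr4, and that of the focal deviation 0.15, 0.13, 0.25 and 0.21. For all genes with 2 or 3 probes the median SDs were 0.26 and 0.20. A focal deviation past 0.2 in size was found in 5 tumors for Fgfr1, 4 for Fgfr2, 7 for Fgfr3 and 13 for Fgfr4, 11 of the 13 below the chromosome. Segments were rarely small. Of the 41 altered pairs, 6 lay in segments with at least 90% of the probes of the chromosome, 29 in shorter ones of at least 10 Mb and 6 in segments under 10 Mb, 3 of which were in MMTV-Her2/neu replicate 2. A short segment can be a piece of a longer change. The Fgfr2 segments under 10 Mb (MMTV-Her2/neu replicate 2 and p53-/- replicates 3 and 4) had means of -0.36, -0.34 and 0.33. The medians of chromosome 7 there were -0.38, -0.34 and 0.28. The authors' intervals gave the same state in 156 of the 180 pairs and the opposite one in none, 13 were called only here and 11 only there.

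Values of different receptor genes were weakly related over the 45 arrays, with Pearson's r from -0.14 for Fgfr2 and Fgfr3 to 0.41 for Fgfr2 and Fgfr4. These are descriptions, since arrays share models and slides. The median of the r values with single genes of the same chromosome was 0.31 for Fgfr1, 0.54 for Fgfr2, 0.21 for Fgfr3 and 0.36 for Fgfr4. It is not the r with the chromosome median. On other chromosomes the genes most like Fgfr1 were AK052120 (chromosome 3, r = 0.66), Aldh2 (0.65) and Cmklr1 (0.64), and those most like Fgfr2 were Slc19a1 (0.76), Ggt1 (0.75) and Cdh23 (0.75), all 3 on chromosome 10. For Fgfr3 they were AK021287 (0.76), Usp10 (0.74) and Rcor2 (0.71), and for Fgfr4 AK157145 (0.78), Zfp341 (0.69) and Abca2 (0.69), all 3 on chromosome 2.

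The rest of the pathway was read from 8 lists with 96 genes on the array. The 18 FGF ligands of 22 listed were gained in 17.4% and lost in 14.1% of their pairs with tumors, the 11 co-receptors and binding proteins of 12 in 14.3 and 7.27%, the 21 signal transducers of 22 in 16.2 and 11.5%, and the 13 inhibitors and targets of 14 in 10.6 and 12.3%. The genes beside Fgfr1 in the human amplicon, 14 of 19, were gained in 12.9 and lost in 8.57%. All genes had 16.2 and 10.7%. Among 768 tests of gene values for the 96 genes, 16 (2.08%) passed, in 14 genes, against 5678 of 167280 (3.39%) over all genes, and the genes beside the receptors gave 2 of these, Brwd2 and Tmem129.

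**Figure D5:**
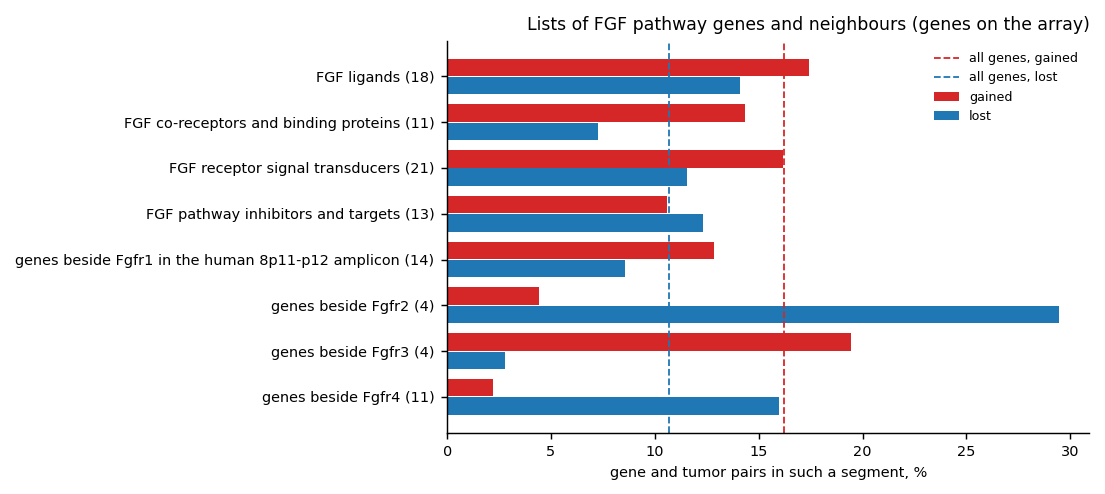
Share of pairs of a gene and a tumor that lay in gained (red) and lost (blue) segments (x axis, %), for 8 lists of FGF pathway genes and of genes beside the receptors, with the number of genes on the array in parentheses. Dashed lines are all genes (16.2% gained, 10.7% lost). The genes beside Fgfr2, lost in 29.4%, stand farthest from the lines.

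By role, the ligands gave 1 call of a gene value, Fgf5, a ligand of the hair cycle. It read 0.087, -0.027, 0.24, 0.11 and 1.22 in BRCA1-deficient replicates 1 to 5, with the high value in replicate 5, and was higher there by 0.46 (SE 0.11, adjusted p = 0.0063 in limma). The median difference of the 18 ligands there was 0.050, beside 0.014 over all genes. Of the 11 co-receptors and binding proteins, Flrt2, a membrane partner of FGF receptors, was higher in p53-/- tumors by 0.58 (SE 0.13, adjusted p = 0.0021), with a mean of 0.54 ± 0.28 (SD, n = 6) and all 6 tumors between 0.20 and 0.89. Ncam1 was higher in the same tumors, and Sdc1 lower, between -0.77 and -0.014. Kl was called lower in BRCA1-deficient tumors but read 0.085 and 0.67 in replicates 1 and 2 and -1.15, -1.04 and -1.64 in replicates 3, 4 and 5, the 3 arrays of slide 11, and the part of the slide was not tested. The median difference of the 11 genes in p53-/- tumors was 0.10, beside 0.0059 over all genes.

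Of the 21 transducers, Sos1, an exchange factor that activates RAS, was lower in p53-/- tumors. Pik3ca, the catalytic subunit of PI3 kinase, was lower in MMTV-HRas tumors (between -1.32 and 0.23). Grb2, an adaptor of receptor kinases, was higher in MMTV-Myc tumors (between -0.20 and 1.5). High Grb2 values were not particular to them, with -0.12, 0.78, 1.17, 0.42 and 0.81 in BRCA1-deficient replicates 1 to 5. The gene lies on chromosome 11. The authors report amplification of the distal part of that chromosome in most MMTV-Myc and some BRCA1-deficient and MMTV-PyMT tumors. The median difference of the 21 genes in p53-/- tumors was -0.029, beside 0.0059 over all genes. Of the 13 inhibitors and targets, Etv4, a transcription factor induced by FGF signals, was higher in BRCA1-deficient tumors by 0.43 (SE 0.10, adjusted p = 0.0092), with all 5 tumors between 0.038 and 0.64, and lower in p53-/- tumors (difference -0.34, adjusted p = 0.013), and Dusp4 was lower in BRCA1-deficient tumors, between -0.43 and -0.076. The remaining lists had no call of a gene value beyond Brwd2 in BRCA1-deficient and Tmem129 in MMTV-HRas tumors, which was lower. By focal deviation, Plekha2 beside Fgfr1 and Hk3, Nsd1 and Rab24 beside Fgfr4 were called higher in p53-/- tumors. In that comparison 19.6% of all genes were called in either direction.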

How the data were processed

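Tumor and reference DNA of 45 tumors were compared on 2-color Agilent 44K arrays, 1 per tumor. DNA was extracted with a DNeasy kit and labelled with an Enzo kit, and the scans were read with Agilent Feature Extraction (9.5.1.1 per the file headers, 10.7 in the submitters' processing notes). The authors deposited, for each spot, the log10 ratio of the dye-normalized, background-subtracted signals. The deposited intensity columns give the processed and raw signal of each dye per spot. The authors' interval table holds mean log2 ratios of aberrant intervals, called by ADM-2 at a threshold of 6.0 with centralization and fuzzy zero on, which were used to check direction and state. The dye-normalization code in the headers differed between 39 and 6 arrays.

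Log ratios were turned to log2, sign reversed, spots of a probe averaged, control spots and flagged outliers left out and each array centred on its autosomal median. No loess was applied in the values reported. Chromosomes were split into segments of at least 5 probes where the split statistic passed 6. Of 450 probe values of the receptor genes, 1 was missing, the third Fgfr1 probe of MMTV-Her2/neu replicate 5, whose gene value rests on the other probes. The 10 nearest probes were taken by distance, so that a side may hold more than the other. limma 3.58.1 in R 4.3.3 (lmFit and eBayes) was fitted over all genes, and the fits and the segmentation were tested on simulated data. Python 3.11.15 was used for the rest. The arrays lie on 18 slides and 10 scan days. Nothing states that tumors of a model came from separate mice, so p-values measure the spread between these tumors. Intervals of shares cover counting error only. Named are the 4 receptor genes, genes of their nearest probes, those of the 5 list genes with the smallest adjusted p that are reported here, the 3 genes on other chromosomes most like each receptor gene by Pearson's r, and Wnt1, Brca1 and Erbb2 as checks of labels. Other called list genes were named after their values were seen, and some results for list genes are not reported here. The members and lists were chosen with earlier results of these data known.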

Additional observations from a re-analysis of the deposited data

Results flagged for a closer look

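In 5 of the 64 groups of values tested, which are the 4 receptor genes in 8 models by gene value and by focal deviation, the highest or lowest tumor lay apart from the rest of its model by Dixon's criterion, which chance alone meets in about 1 group of 20. Fgfr1 in BRCA1-/-;p53+/- replicate 5 lay apart by gene value (0.47, the other 4 tumors between -0.20 and -0.068) and by focal deviation (0.60, the others between -0.20 and -0.0058). The focal deviation of Fgfr3 was 0.29 in MMTV-Myc replicate 1 (the others between 0.0081 and 0.072), whose probe SD is 0.444. The focal deviation of Fgfr3 was -1.35 in MMTV-Her2/neu replicate 2 (the others between -0.13 and 0.018), where it rests on 1 of 2 probes. The focal deviation of Fgfr4 was -0.36 in MMTV-Wnt1 replicate 5 (the others between 9.8e-05 and 0.10), whose probe SD is 0.350. The part of probe noise in these values was not tested.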

How the results depend on the processing

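The count of tumors with an altered receptor gene was 13 to 21 under the other settings and 17 to 18 when each tumor was left out, against 18. The number of called gene values stayed at 0 under the 9 other settings and was 0 to 1 when each tumor was left out, 1 without p53-/- replicate 1. The 1 focal call became 0 with normexp background without loess, with slide as a random block, without the 5 arrays in doubt and with the median of the probes and the nearest 10, and 0 to 1 when each tumor was left out. For that call, Fgfr2 in p53-/- tumors, the difference of -0.16 was -0.12 (adjusted p = 0.19, limma), -0.16 (0.17), -0.16 (0.073) and 0.036 (0.61) under these settings in turn, and -0.24 to -0.087 when each tumor was left out (adjusted p 0.0015 to 0.34). The Fgfr3 focal difference of MMTV-Her2/neu tumors was 0.047 with the median of the nearest probes and -0.38 to -0.038 when each tumor was left out. The causes were not tested. Losses of Fgfr2 were 7 to 14 under the other settings, gains of Fgfr1 4 to 8, gains of Fgfr3 6 to 11, losses of Fgfr4 4 to 11 and gains of Fgfr4 0 to 5. Centring on the density peak moved the array centre by -0.14 to 0.26, by over 0.1 in 8 arrays. Slide or scan day as a fixed term could not be fitted. No paired analysis was possible because replicate numbers were given in accession order and pair no tumors. Signal over background limits values of dim spots.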
